A study of Mus musculus with 16 samples.

Results

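The 10 genes described here are the usual identity genes of endothelium, the cell layer that lines vessels: the adhesion molecules Pecam1 (CD31) and Icam2, the junction genes Cdh5 (VE-cadherin) and Cldn5, the receptors Kdr, Tek and Tie1, the enzyme gene Nos3, the clotting glycoprotein gene Vwf and the surface sialomucin gene Emcn. They were taken by name, not by their values, and are 10 of the 55356 named mouse genes in the deposited count table, of which 10634 passed the filter on low counts. All 10 members passed it. They were measured in 16 poly(A) RNA libraries made from brachiocephalic artery sections; this vessel leaves the aortic arch and is a common site of plaques in Apoe-deficient mice. The 4 groups of 4 female mice were Apoe-/-Mif-/- mice after 42 weeks of diet, Apoe-/- mice after 42 weeks, Apoe-/-Mif-/- mice after 24 weeks and Apoe-/- mice after 24 weeks. All mice lacked Apoe, the apolipoprotein that clears remnant lipoproteins, and all ate chow until 6 weeks of age and then a Western-type diet in which fat made up 21.2% and cholesterol 0.2%. Mif encodes macrophage migration inhibitory factor, an inflammatory cytokine. Lysates of 3 to 4 sections of 5 µm, each scraped with the whole vessel and what adhered to it, made up the sample of 1 mouse, and 1 ng of its RNA was amplified by Smart-seq2, a method without molecular identifiers or strand information.

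Endothelium forms a single-cell layer on the inner face of an artery and also lines the small vessels in the outer wall and in the surrounding fat. VE-cadherin and claudin-5 hold the cells together, VEGF signals through KDR, and angiopoietins signal through TEK with TIE1 as its partner. In the mouse, NOS3 makes the nitric oxide that relaxes smooth muscle, and VWF is stored in Weibel-Palade bodies and tethers platelets at sites of injury. Several of these genes are not exclusive to endothelium: Pecam1 is also on leukocytes and platelets, and Vwf is also made by megakaryocytes.

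The promoters of the 3 receptor genes are shown because Kdr carried the only call among the members, while Tek and Tie1, the other receptors, did not follow it. Each line gives the 250 bases before the start of the gene, 5′ to 3′ on the gene's strand, from RefSeq on build GRCm38.p6. The Kdr window lay at chr5:75978456-75978705 on the minus strand, the Tek window at chr4:94739039-94739288 on the plus strand and the Tie1 window at chr4:118489850-118490099 on the minus strand. Capitals mark GGAA and its reverse complement TTCC, the core bound by ETS transcription factors, a family that includes the endothelial factors ERG and FLI1.
Kdr: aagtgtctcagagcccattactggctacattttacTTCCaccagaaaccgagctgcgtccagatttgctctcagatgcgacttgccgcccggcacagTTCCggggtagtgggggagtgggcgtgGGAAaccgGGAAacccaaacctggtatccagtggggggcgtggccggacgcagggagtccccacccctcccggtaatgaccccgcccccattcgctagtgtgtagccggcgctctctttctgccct
Tek: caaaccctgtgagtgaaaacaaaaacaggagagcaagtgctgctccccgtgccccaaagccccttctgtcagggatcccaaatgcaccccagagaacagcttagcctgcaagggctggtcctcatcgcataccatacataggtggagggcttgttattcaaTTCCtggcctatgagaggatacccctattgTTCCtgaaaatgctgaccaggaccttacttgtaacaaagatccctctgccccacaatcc
Tie1: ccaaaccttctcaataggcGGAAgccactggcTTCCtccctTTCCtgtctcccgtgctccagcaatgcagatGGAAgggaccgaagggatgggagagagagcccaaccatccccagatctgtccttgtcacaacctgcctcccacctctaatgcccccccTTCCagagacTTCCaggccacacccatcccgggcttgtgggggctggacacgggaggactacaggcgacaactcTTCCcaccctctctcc
The Tie1 window held 7 such cores, the Kdr window 4 and the Tek window 2. Of 32851 mouse promoter windows of the same length, 93.4% held at least 1 core and the median was 3. At least as many cores as in Tie1 stood in 3.82% of all windows, as many as in Kdr in 33.4% and as many as in Tek in 76.8%. The 4-letter GATA motif and its reverse complement TATC occurred in 53.6% of all windows, with 1 match each in Kdr and Tek and 0 in Tie1. Windows were found for 5 of the 10 members, and Cldn5 held 0 ETS cores and Emcn 4. These letters are a description of the sequence and were not set against binding data.

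Depth and quality set how finely these genes could be read. Libraries held 378066 to 8649525 counts, and the members together took 0.011% to 0.296% of them. Mif, the deleted gene, was at 2.39 to 19.9 counts normalised to library size (CPM) in Apoe-/-Mif-/- libraries and at 23.2 to 301.4 CPM in Apoe-/- libraries, so the groups fell in the order of their labels. Reads of Apoe itself stood at 2.58 to 1127 CPM; a count per gene symbol cannot show which exons they came from. The artery held its smooth muscle transcripts in every library (11 genes, summed level 1748 to 21199 CPM) and those of macrophages (12 genes, 2223 to 38343 CPM). White adipocyte genes summed to 585 to 32039 CPM over 15 genes. Fat is rich in capillaries. Plate row C held the 4 Apoe-/-Mif-/- libraries from 24 weeks and row B all 12 others, so row and group cannot be told apart in comparisons with those 4. Genotype at 42 weeks and duration in Apoe-/- mice were compared within row B. All mice started the diet at 6 weeks of age, so duration of diet and age cannot be told apart. In such bulk samples, fewer endothelial cells and less RNA per endothelial cell cannot be told apart.

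All values below are CPM scaled by TMM (the trimmed mean of M-values, which corrects library sizes for composition), with libraries 1 to 4 of a group in a fixed order that pairs nothing. A gene was called changed when the adjusted p of edgeR's quasi-likelihood test, with Benjamini-Hochberg adjustment over the 10634 genes, was under 0.05. Each library came from another mouse, so the spread is that between mice plus the technical spread of amplifying 1 ng of RNA.

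The members varied widely between mice of the same group. Over the 16 libraries the summed level of the members ran from 132.8 to 4010 CPM. In Apoe-/-Mif-/- mice at 42 weeks it averaged 1172 ± 947 CPM, against 1740 ± 1616 CPM in Apoe-/- mice at 42 weeks (SD, n = 4 each). At 24 weeks it averaged 677 ± 633 CPM in Apoe-/-Mif-/- mice, against 909.8 ± 661 CPM in Apoe-/- mice (SD, n = 4 each). In every one of the 40 pairwise comparisons, 10 members in 4 contrasts, the values of the groups overlapped. Over all genes the groups stood apart in 1.03% to 3.09%, by contrast and direction. Within-group variance made up a median 85.8% of the variance of log2 CPM of the members, near the 80.4% over all tested genes, with Cdh5 highest at 98.8% and Vwf lowest at 55.9%. In 4 groups of 4 such a share is high even without any group difference, so it is no trait of the members.

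**Figure D1:**
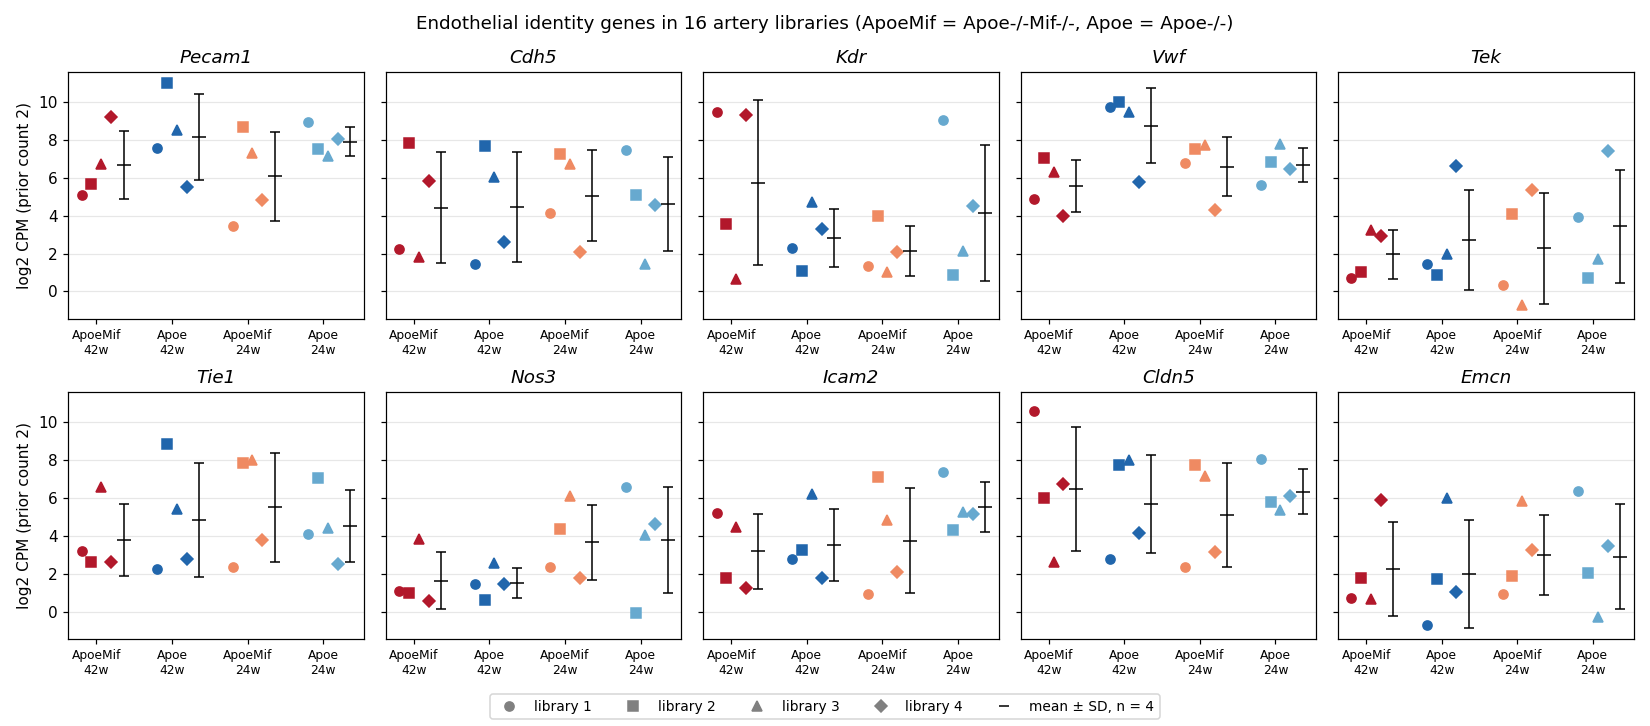
Level of each endothelial gene (vertical axis, log2 CPM with a prior count of 2) in the 4 groups (horizontal axis); each point is 1 library, its shape gives the library number and the bar is the mean ± SD of 4 mice. In every panel the 4 groups overlap, and 3 libraries of Kdr and 3 libraries of Vwf stand high.

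Levels between genes were compared per kilobase of exon, with exon lengths from GENCODE vM21. By the median over the 16 libraries the order was Cldn5 at 46.2 CPM per kb, Pecam1 at 41.1, Icam2 at 16.01, Vwf at 11.5, Cdh5 at 7.12 and Tie1 at 3.25 CPM per kb. The others followed with Emcn at 1.13, Kdr at 1.12, Nos3 at 0.891 and Tek at 0.637 CPM per kb. The ranges of every gene and its neighbour in this order overlapped, so the order describes medians only. At the median library Kdr stood near the bottom of the list, while its mean of 20.8 CPM per kb was above that of Cdh5 at 17.0, because 3 libraries held most of its reads.

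Kdr, the main VEGF receptor of blood vessel endothelium, was the only member called in any comparison. It had 711, 11.1, 0.958 and 633 CPM in Apoe-/-Mif-/- mice at 42 weeks, against 4.22, 1.48, 25.7 and 9.07 CPM in Apoe-/- mice at 42 weeks. After 24 weeks Kdr had 1.96, 15.2, 1.42 and 3.70 CPM in Apoe-/-Mif-/- mice, against 528, 1.182, 3.81 and 22.5 CPM in Apoe-/- mice. Kdr was therefore high in 3 libraries, libraries 1 and 4 of Apoe-/-Mif-/- mice at 42 weeks and library 1 of Apoe-/- mice at 24 weeks. These 3 held 94.8% of its summed CPM, and the lowest of them was 20.5-fold above the highest of the other 13. Mitochondrial transcripts made up 6.01%, 8.64% and 10.2% of the counts in these 3 libraries and 0.751% to 7.30% in the other 13, 11 of which were at or below 3.55%; their part in the Kdr result was not tested. The effect of Mif deletion on Kdr at 42 weeks minus that at 24 weeks was a log2 difference of 9.64 ± 2.32 (SE; edgeR adjusted p = 0.0432). Among all genes 73 were called in this contrast, or 0.686%, and among the members 1 of 10.

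The separate contrasts behind that difference did not pass. Kdr had a log2 difference of 5.03 ± 1.66 between Apoe-/-Mif-/- and Apoe-/- mice at 42 weeks (SE, edgeR adjusted p = 0.176) and had a log2 difference of -4.61 ± 1.62 at 24 weeks (adjusted p = 0.361). Between 42 and 24 weeks its fitted log2 change was 5.90 ± 1.73 in Apoe-/-Mif-/- mice (adjusted p = 0.168) and -3.74 ± 1.56 in Apoe-/- mice (adjusted p = 0.338). These contrasts share libraries with each other and with the difference above. The call on the difference was not stable to single mice: it was lost in 10 of 16 fits that left out 1 library, at adjusted p = 0.0507 to 0.195. In 9 of these 10 fits the log2 difference was 9.17 to 11.07, near the full value. The libraries whose removal ended it were library 1 of Apoe-/-Mif-/- mice at 42 weeks, each of the 4 of Apoe-/- mice at 42 weeks, each of the 4 of Apoe-/-Mif-/- mice at 24 weeks and library 1 of Apoe-/- mice at 24 weeks. Without the last of these it was 5.68, the lowest of the 16 fits. The call also depended on the method. With limma voom in place of edgeR the log2 difference was 4.01 ± 2.56 (SE, adjusted p = 0.844) and was not called. With DESeq2 it was 10.36 ± 2.12 (SE, adjusted p = 2.21e-04) and was called.

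Gpihbp1, a capillary transcript, was high in the same 3 libraries as Kdr, while the fat transcripts Adipoq and Ucp1 matched them only in part. Gpihbp1, whose product anchors lipoprotein lipase on capillaries, had 646, 39.0, 0.958 and 824 CPM in Apoe-/-Mif-/- mice at 42 weeks, against 14.8, 2.66, 3.64 and 11.9 CPM in Apoe-/- mice at 42 weeks. Its 24-week levels were 4.58, 3.08, 4.26 and 11.1 CPM in Apoe-/-Mif-/- mice, against 794, 1.52, 13.7 and 107 CPM in Apoe-/- mice. The 3 libraries highest in Gpihbp1 were the 3 highest in Kdr. Adipoq, the adipocyte hormone adiponectin, was at 224 and 186 CPM in libraries 1 and 4 of Apoe-/-Mif-/- mice at 42 weeks but highest at 1720.1 CPM in library 2, and Ucp1, the brown fat uncoupling protein, was at 21.1 and 52.9 CPM there but at 1279 CPM in library 2. In library 1 of Apoe-/- mice at 24 weeks, also high in Kdr, Adipoq was at 672 CPM. Ucp1 was at 3448 CPM in that library, its highest level of the 16. For Gpihbp1 the Mif effect at 42 weeks minus that at 24 weeks was 10.89 ± 2.17 on the log2 scale (SE, edgeR adjusted p = 0.0204), and for Cd300lg, a mucin-like receptor of capillary and venous endothelium, it was 9.61 ± 2.43 (adjusted p = 0.0498). Cd300lg was at 30.8 and 792 CPM in libraries 1 and 4 of Apoe-/-Mif-/- mice at 42 weeks. In Apoe-/- mice at 24 weeks it was at 379 CPM in library 1 and at 25.0 CPM in library 3. In the library highest in Kdr it was therefore near a library low in Kdr. Over the 16 libraries the Pearson correlation of log2 CPM with Kdr was 0.91 for Gpihbp1 (Spearman 0.76) and 0.70 for Cd300lg (Spearman 0.40). It was 0.59 for Adipoq (Spearman 0.66), 0.57 for Ucp1 (Spearman 0.75) and -0.50 for Vwf (Spearman -0.35). These are descriptions over points that share library and depth, and the genes set beside Kdr, other than Vwf, were taken from the capillary and fat lists with their values known.

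Fat transcripts varied between mice of a group, and white adipocyte sums overlapped between genotypes at each diet time. In Apoe-/-Mif-/- mice these sums did not overlap between 24 and 42 weeks. White adipocyte genes summed to 1651 to 32039 CPM in Apoe-/-Mif-/- mice at 42 weeks, against 1760 to 15100.5 CPM in Apoe-/- mice at 42 weeks. At 24 weeks they summed to 585 to 1570 CPM in Apoe-/-Mif-/- mice, against 1121 to 28453 CPM in Apoe-/- mice. In the Mif effect at 42 weeks minus that at 24 weeks, 0.686% of all genes were called. Among them were 2 of 14 tested white adipocyte genes (Plin1 and Thrsp) and 4 of 6 brown adipocyte genes (Cidea, Cox8b, Ucp1 and Elovl3). With these were 4 of 8 striated muscle genes (Atp2a1, Acta1, Myh4 and Tnnt3), all upwards. In Apoe-/- mice at 24 weeks brown adipocyte genes summed to 15685 and 3551 CPM in libraries 1 and 4, against 53.7 and 207 CPM in libraries 2 and 3. Striated muscle genes summed to 5330 and 3055 CPM in libraries 1 and 4, against 13.5 and 34.9 CPM in libraries 2 and 3. For genotype at 24 weeks all 5 called genes, 0.047% of all genes, were of these lists and lower in Apoe-/-Mif-/- mice: Plin1, Thrsp, Atp2a1, Myh4 and Tnnt3. For duration in Apoe-/-Mif-/- mice 0.122% of all genes were called, and those of these lists were Plin1, Thrsp and Car3, all higher after 42 weeks. Library 2 of Apoe-/-Mif-/- mice at 42 weeks had the highest white adipocyte sum and 11.1 CPM of Kdr. When the white adipocyte score was added to the fit as a covariate, a setting chosen after the data were seen, the Kdr difference was 1.203 ± 2.362 on the log2 scale (SE, adjusted p = 0.955). The score also varied with group, so this fit cannot tell fat and group apart. Whether fat or other tissue on the sections set the Kdr level was not tested.

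**Figure D2:**
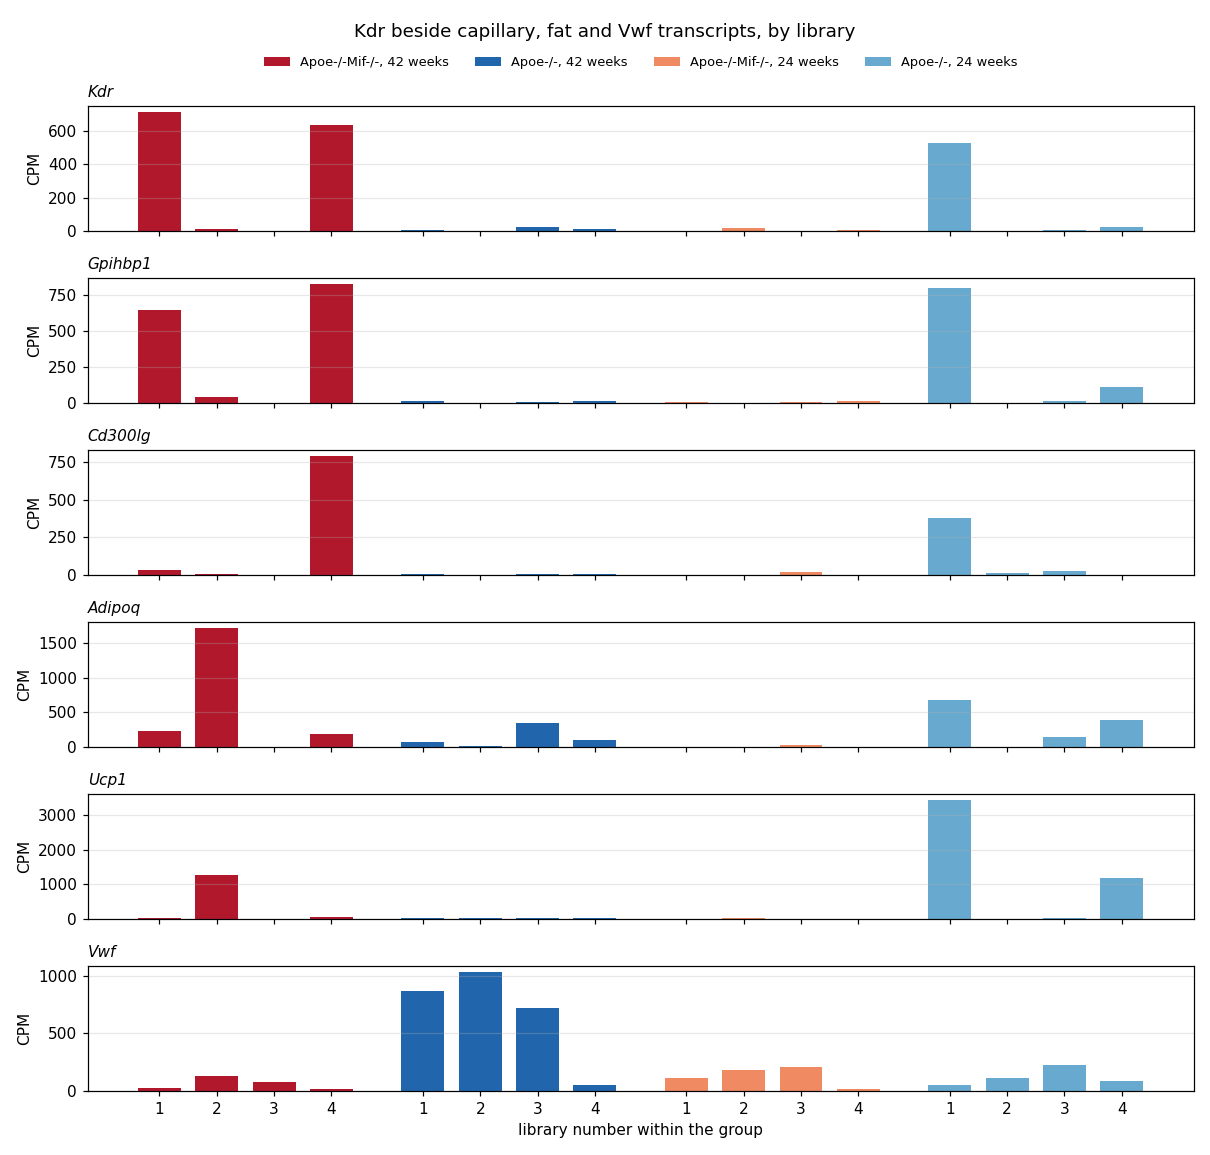
CPM (vertical axes, linear, each from 0 with its own scale) of Kdr, Gpihbp1, Cd300lg, Adipoq, Ucp1 and Vwf in the 16 libraries (horizontal axis, library number within each of the 4 coloured groups). Kdr and Gpihbp1 are high in the same 3 libraries, and Vwf is high in 3 others, all from Apoe-/- mice at 42 weeks.

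Vwf showed another distribution. It had 29.3, 130.9, 78.8 and 15.5 CPM in Apoe-/-Mif-/- mice at 42 weeks, against 868, 1036, 721 and 54.4 CPM in Apoe-/- mice at 42 weeks. Vwf levels after 24 weeks were 110.01, 183, 211 and 19.4 CPM in Apoe-/-Mif-/- mice, against 49.5, 116, 224 and 89.4 CPM in Apoe-/- mice. Libraries 1, 2 and 3 of Apoe-/- mice at 42 weeks were the highest of all 16, the lowest of them 3.21-fold above the next library, while library 4 of that group lay within the range of the other groups. At 42 weeks Vwf averaged 63.6 ± 52.5 CPM in Apoe-/-Mif-/- mice, against 669.8 ± 430.0 CPM in Apoe-/- mice (SD, n = 4 each), a log2 fold change of -3.40 ± 1.01 (SE) that did not pass (edgeR adjusted p = 0.176). The 42-week change in Apoe-/- mice was 2.48 ± 0.97 on the log2 scale (SE, adjusted p = 0.322), and the Mif effect at 42 weeks minus that at 24 weeks was -3.53 ± 1.34 (SE, adjusted p = 0.208). Leaving out any 1 library kept the 42-week genotype value between -4.00 and -3.02. DESeq2 called Vwf lower in that comparison (log2 -2.89 ± 0.94 SE, adjusted p = 0.0303), unlike edgeR.

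Vwf is also a product of megakaryocytes, so their transcripts were read beside it. The 10 megakaryocyte and platelet genes summed to 4.30 to 489 CPM in Apoe-/-Mif-/- mice at 42 weeks, against 78.3 to 297 CPM in Apoe-/- mice at 42 weeks. After 24 weeks they summed to 65.7 to 427 CPM in Apoe-/-Mif-/- mice, against 29.3 to 244 CPM in Apoe-/- mice. Their highest sum was in library 1 of Apoe-/-Mif-/- mice at 42 weeks, where Vwf was 29.3 CPM. In that library 5 of the 10 genes had 0 counts and Pf4, platelet factor 4, was at 2.05 CPM, so a few other genes made up the sum. Of the 10 genes 4 were tested, and 0 were called in any comparison. For genotype at 42 weeks 2 were positive and 2 negative, and for duration in Apoe-/- mice 2 and 2. In the difference of Mif effects 1 was positive and 3 were negative. Treml1 and Pf4 were chosen with their values known, and the fitted values given next for them had the sign of Vwf. For genotype at 42 weeks and for duration in Apoe-/- mice, 2 of the 4 tested genes had the sign opposite to Vwf. Treml1, a platelet granule receptor, had a log2 genotype difference of -5.17 ± 2.40 at 42 weeks (SE, edgeR adjusted p = 0.262). Pf4 had 2.05, 5.57, 74.7 and 0 CPM in Apoe-/-Mif-/- mice at 42 weeks, against 124, 63.8, 27.3 and 218 CPM in Apoe-/- mice at 42 weeks. For Pf4 the difference of Mif effects was -4.91 ± 2.08 (SE, adjusted p = 0.268) and the change with duration in Apoe-/- mice 2.80 ± 1.49 (adjusted p = 0.443). Within Apoe-/- mice at 42 weeks Pf4 was highest in library 4, the one low in Vwf. The platelet genes Gp1bb and Gp6 had 0 counts in all 16 libraries, and Ppbp had 0 counts in the 4 libraries of Apoe-/- mice at 42 weeks. The part of platelets in the Vwf level was not tested. Among 7 tested genes of Vwf storage and of its platelet receptor, 0 were called in any comparison. The smallest p among them belonged to Rab27a, a GTPase that helps hold secretory granules, with a log2 change of -6.68 ± 2.14 between 42 and 24 weeks in Apoe-/-Mif-/- mice (SE, edgeR adjusted p = 0.190).

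The junction genes Cdh5 and Cldn5 moved by single libraries. Cdh5, the adhesion molecule of endothelial adherens junctions, had 4.11, 231, 2.87 and 56.3 CPM in Apoe-/-Mif-/- mice at 42 weeks, against 2.11, 209, 65.2 and 5.58 CPM in Apoe-/- mice at 42 weeks. The 24-week values of Cdh5 were 17.0, 154, 105 and 3.70 CPM in Apoe-/-Mif-/- mice, against 174, 33.4, 2.07 and 23.4 CPM in Apoe-/- mice. Every group spanned at least 41.7-fold between its lowest and highest library, and the 4 group means lay between 58.3 and 73.6 CPM. The lowest value in Apoe-/- mice at 42 weeks was 1 count in the shallowest library, where 3 counts equal 6.32 CPM, so that group's span is uncertain. The genotype difference in Cdh5 at 42 weeks was a log2 value of 0.05 ± 1.42 (SE, edgeR adjusted p = 0.990).

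Cldn5, the claudin of endothelial tight junctions, had 1548, 62.7, 5.51 and 106 CPM in Apoe-/-Mif-/- mice at 42 weeks, against 6.32, 217, 253 and 17.4 CPM in Apoe-/- mice at 42 weeks. After 24 weeks Cldn5 had 4.58, 214, 141 and 8.33 CPM in Apoe-/-Mif-/- mice, against 265, 54.5, 40.2 and 68.1 CPM in Apoe-/- mice. Library 1 of Apoe-/-Mif-/- mice at 42 weeks held 51.4% of its summed CPM, and the same library was the highest in Kdr. Its log2 genotype difference at 42 weeks was 1.79 ± 1.26 (SE, adjusted p = 0.462), and without that library -1.01. Among 11 tested junction partners, 0 were called in any comparison. The smallest p was that of Jup, the junctional protein plakoglobin, with a log2 change of 5.01 ± 1.35 between 42 and 24 weeks in Apoe-/-Mif-/- mice (SE, adjusted p = 0.125).

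The adhesion genes Pecam1 and Icam2 overlapped between all groups. Pecam1, the best counted member with 16 to 6986 counts a library, had 33.9, 50.1, 106 and 593 CPM in Apoe-/-Mif-/- mice at 42 weeks, against 192, 2064, 367 and 46.0 CPM in Apoe-/- mice at 42 weeks. Pecam1 had 10.48, 417, 159 and 28.2 CPM in Apoe-/-Mif-/- mice at 24 weeks, against 498, 181, 145 and 264 CPM in Apoe-/- mice. Its log2 genotype difference was -1.77 ± 1.05 at 42 weeks (SE, edgeR adjusted p = 0.375) and -0.82 ± 1.03 at 24 weeks (adjusted p = 0.965). Library 2 of Apoe-/- mice at 42 weeks held 40.05% of all its CPM, and without that library the 42-week value was 0.11. That library also had the highest summed macrophage level, 38343 CPM, and the part of leukocytes in its Pecam1 was not tested.

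Icam2, a ligand of leukocyte integrins on resting endothelium, had 37.0, 2.79, 21.8 and 1.72 CPM in Apoe-/-Mif-/- mice at 42 weeks, against 6.32, 8.86, 72.5 and 2.79 CPM in Apoe-/- mice at 42 weeks. In the shorter diet groups Icam2 had 1.31, 139, 27.8 and 3.70 CPM in Apoe-/-Mif-/- mice, against 168, 19.2, 37.1 and 35.3 CPM in Apoe-/- mice. None of its contrasts passed, with log2 values between -1.5 and 0.07 and adjusted p from 0.71 to 0.994.

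The angiopoietin receptors Tek and Tie1 peaked in different mice, though library 2 of Apoe-/-Mif-/- mice at 24 weeks was among the top 4 of 16 in both. Tek had 1.03, 1.39, 8.86 and 6.88 CPM in Apoe-/-Mif-/- mice at 42 weeks, against 2.11, 1.182, 3.38 and 98.4 CPM in Apoe-/- mice at 42 weeks. Tek after 24 weeks had 0.655, 16.6, 0 and 41.2 CPM in Apoe-/-Mif-/- mice, against 14.6, 1.01, 2.61 and 170.1 CPM in Apoe-/- mice. The 0 in library 3 allows a level of up to 0.609 CPM, counting 3 reads as the limit. Its log2 genotype difference was -2.49 ± 1.78 at 42 weeks (SE, adjusted p = 0.468), where 1 library carried the Apoe-/- mean: without library 4 the value was 1.09.

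Tie1, the partner receptor of Tek, had 8.73, 5.57, 96.7 and 5.59 CPM in Apoe-/-Mif-/- mice at 42 weeks, against 4.22, 469, 41.6 and 6.28 CPM in Apoe-/- mice at 42 weeks. Tie1 at 24 weeks was at 4.58, 229.9, 258 and 12.95 CPM in Apoe-/-Mif-/- mice, against 16.7, 133, 20.9 and 5.00 CPM in Apoe-/- mice. In each group 1 or 2 libraries stood well above the others. The log2 genotype difference was -2.15 ± 1.44 at 42 weeks (SE, adjusted p = 0.435) and 1.52 ± 1.41 at 24 weeks (adjusted p = 0.933), and their difference was -3.67 ± 2.01 (adjusted p = 0.405). Of 11 tested genes of angiopoietin and VEGF signalling, 0 were called. The smallest p was that of Angpt4, an angiopoietin ligand, with a log2 genotype difference of -8.38 ± 2.32 at 24 weeks (SE, adjusted p = 0.226).

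Nos3, the endothelial nitric oxide synthase gene, had only 1 to 58 counts a library after 42 weeks. It had 1.54, 1.39, 13.9 and 0.860 CPM in Apoe-/-Mif-/- mice at 42 weeks, against 2.11, 0.886, 5.20 and 2.09 CPM in Apoe-/- mice at 42 weeks. The 24-week levels of Nos3 were 4.58, 20.3, 67.4 and 2.78 CPM in Apoe-/-Mif-/- mice, against 96.0, 0.338, 15.8 and 24.4 CPM in Apoe-/- mice. In Apoe-/- mice it averaged 2.57 ± 1.84 CPM after 42 weeks, against 34.1 ± 42.4 CPM after 24 weeks (SD, n = 4 each), a log2 change of -3.68 ± 1.72 (SE, adjusted p = 0.378). In Apoe-/-Mif-/- mice the same change was -2.38 ± 1.61 (SE, adjusted p = 0.538). Neither passed, and the groups overlapped, with library 2 of Apoe-/- mice at 24 weeks at 2 counts. Of 12 tested genes of nitric oxide synthesis and response 0 were called. The smallest p was that of Gucy1a1, a subunit of the nitric oxide receptor guanylate cyclase, with a log2 change of 5.21 ± 1.93 between 42 and 24 weeks in Apoe-/-Mif-/- mice (SE, adjusted p = 0.262).

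Emcn, a sialomucin of venous and capillary endothelium, had 1.03, 2.79, 0.958 and 58.5 CPM in Apoe-/-Mif-/- mice at 42 weeks, against 0, 2.66, 63.2 and 1.40 CPM in Apoe-/- mice at 42 weeks. The 0 came from the shallowest library, where it allows up to 6.32 CPM. After 24 weeks Emcn had 1.31, 3.08, 55.8 and 8.79 CPM in Apoe-/-Mif-/- mice, against 81.8, 3.55, 0.218 and 10.3 CPM in Apoe-/- mice. Every group held 1 library above 50 CPM and 3 libraries below 11 CPM. No contrast passed, with log2 values between -0.48 and 0.36 and adjusted p of at least 0.941.

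Read by contrast, the members gave no called difference in genotype or duration. At 42 weeks 0 members and 0% of all genes were called for genotype, and at an unadjusted p under 0.05 there were 2 members, Kdr and Vwf, against 17.3% of all genes. At 24 weeks 0 members were called, beside 0.047% of all genes, and 1 member, Kdr, had an unadjusted p under 0.05, beside 7.33%. Between 42 and 24 weeks in Apoe-/-Mif-/- mice 0 members were called, beside 0.122% of all genes, with Kdr alone under an unadjusted 0.05, beside 13.1%. In Apoe-/- mice 0 members and 0% of all genes were called for duration, and Kdr, Vwf and Nos3 were under an unadjusted 0.05, beside 12.2%. In the Mif effect at 42 weeks minus that at 24 weeks, Kdr and Vwf were under an unadjusted 0.05, beside 14.2%. No member separated the groups in any pairwise contrast, while higher without overlap were 1.17% of all genes for genotype at 42 weeks, 1.55% at 24 weeks, 1.35% for duration in Apoe-/-Mif-/- mice and 1.06% in Apoe-/- mice. Lower without overlap were 1.03%, 2.29%, 3.03% and 3.09% in the same order.

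The direction of the members was mixed in each contrast. For genotype at 42 weeks 4 were positive and 6 negative, beside 51.8% positive over all genes, with a median log2 value of -0.31 beside 0.09. At 24 weeks 3 were positive and 7 negative, beside 45.1% positive, with a median of -0.49 beside -0.18. For duration in Apoe-/-Mif-/- mice 4 were positive and 6 negative, beside 52.9% positive, with a median of -0.58 beside 0.12. For duration in Apoe-/- mice 5 were positive and 5 negative, beside 47.3%, with a median of -0.13 beside -0.12. In the difference of Mif effects 5 were positive and 5 negative, beside 54%, with a median of -0.08 beside 0.26. With DESeq2's size factors in place of TMM, 6 of the 50 member values changed sign, all of them smaller than their SE: Cdh5 for genotype at 24 weeks and in the difference of Mif effects, Icam2 and Emcn for genotype at 42 weeks, Cldn5 for duration in Apoe-/- mice and Emcn for duration in Apoe-/-Mif-/- mice.

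**Figure D3:**
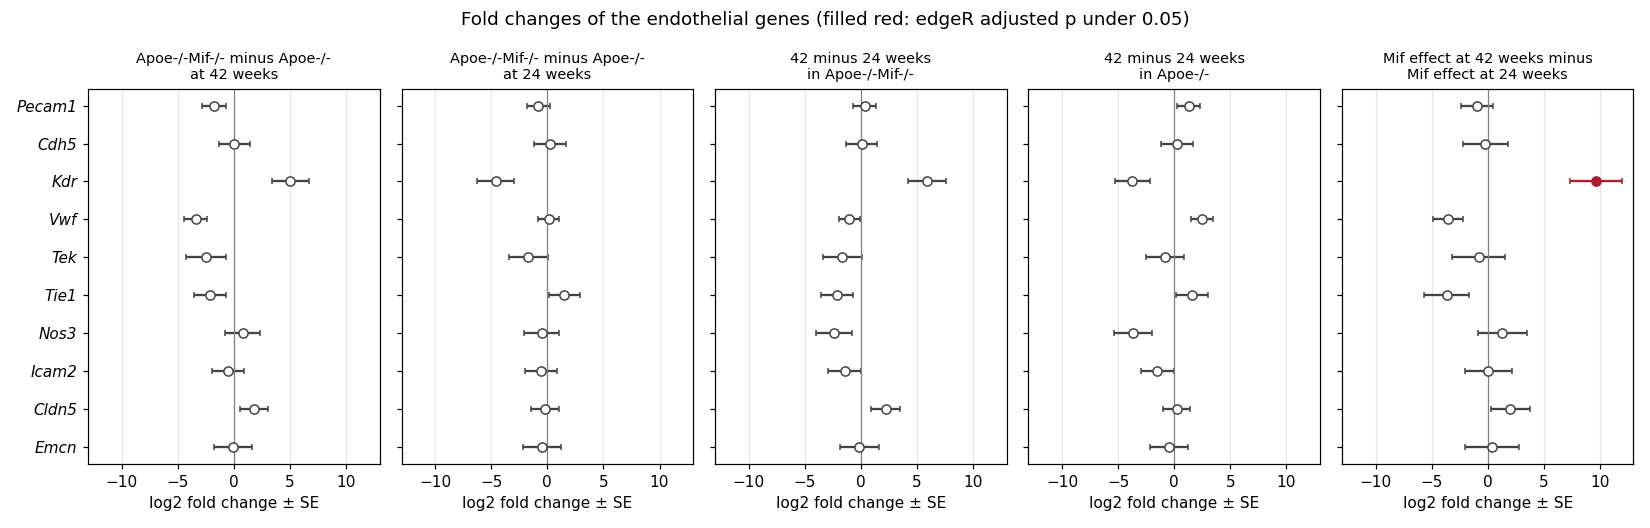
Fitted log2 fold change ± SE (horizontal axis) of the 10 endothelial genes (vertical axis) in the 5 contrasts, 1 panel each, from 1 edgeR fit over 16 libraries; filled red marks an adjusted p under 0.05. Kdr in the difference of Mif effects, at 9.64, is the only filled point.

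The wider endothelial lists held no called gene, except the capillary and venous one. Of 18 tested other pan-endothelial genes, 12 endothelial transcription factors, 10 arterial and 3 lymphatic endothelial genes, 0 were called in any contrast. Their smallest p values belonged to Myct1, with a log2 change of 6.96 ± 1.95 for duration in Apoe-/-Mif-/- mice (SE, edgeR adjusted p = 0.157), to the ETS factor Erg, with 4.68 ± 1.80 for genotype at 42 weeks (adjusted p = 0.198), to the Notch ligand Dll4, with -6.37 ± 1.99 for duration in Apoe-/-Mif-/- mice (adjusted p = 0.183), and to the scavenger receptor Stab2, with -7.00 ± 2.57 in the difference of Mif effects (adjusted p = 0.194). Arterial genes for genotype at 42 weeks were 1 positive and 9 negative with a median of -1.91, none passing, beside 51.8% positive and a median of 0.09 over all genes. Their summed level lay the other way, at 1461 ± 1175 CPM in Apoe-/-Mif-/- mice against 1169 ± 801 CPM in Apoe-/- mice (SD, n = 4 each). Of 9 tested capillary and venous genes, Gpihbp1 and Cd300lg were called in the difference of Mif effects, where the list's median was 5.50 beside 0.26 over all genes. Summed over 12 genes, this list reached 3344 and 8521 CPM in libraries 1 and 4 of Apoe-/-Mif-/- mice at 42 weeks and 12923 CPM in library 1 of Apoe-/- mice at 24 weeks, the 3 libraries high in Kdr. It reached 4428 CPM in library 2 of Apoe-/-Mif-/- mice at 42 weeks, where Kdr was 11.1 CPM. The list holds Fabp4, a fatty acid binding protein that adipocytes also make and that is in the white adipocyte list too. Without Fabp4 the sum over 11 genes was 979.6 and 5431 CPM in libraries 1 and 4 of Apoe-/-Mif-/- mice at 42 weeks, 177 CPM in library 2, and 3316 CPM in library 1 of Apoe-/- mice at 24 weeks. In the other 12 libraries it was 261 to 1315 CPM.

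Between mice, the members varied together only in part. Over the 45 pairs of members the median Pearson correlation of log2 CPM was 0.20 (16 libraries), beside 0.03 over all pairs of tested genes and 0.04 over pairs of genes of like mean level. Correlations above 0 made up 84.4% of the member pairs, beside 53.9% of all pairs, and those above 0.5 made up 15.6%, beside 4.26%. The highest were Nos3 with Icam2 at 0.65, Kdr with Cldn5 at 0.62, Cdh5 with Emcn at 0.60 and Icam2 with Cldn5 at 0.57. The lowest were Kdr with Vwf at -0.50, Kdr with Tie1 at -0.42, Vwf with Tek at -0.40 and Tek with Tie1 at -0.31. The points share library and depth, and genes in pairs are not independent.

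Set against the mean of the other 9 members, Icam2 at 0.66, Cldn5 at 0.65 and Pecam1 at 0.65 followed the rest most closely, then Emcn at 0.57, Cdh5 at 0.55, Nos3 at 0.38, Tie1 at 0.27 and Kdr at 0.22. Vwf at -0.02 and Tek at -0.08 did not follow the other members. By number of members ranked high, the leading libraries were these. Library 1 of Apoe-/- mice at 24 weeks was among the top 4 libraries for 7 members, library 2 of Apoe-/-Mif-/- mice at 24 weeks for 6, and libraries 2 and 3 of Apoe-/- mice at 42 weeks for 5 each. By summed CPM, library 1 of Apoe-/-Mif-/- mice at 42 weeks was second of the 16 at 2376 CPM, though among the top 4 for only 2 members, and highest of all in Kdr and Cldn5. The SD of log2 CPM over the 16 libraries was a median 2.32 for the members, beside 1.96 over all tested genes, and the highest library held a median 35.8% of a member's CPM, beside 32.2%.

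**Figure D4:**
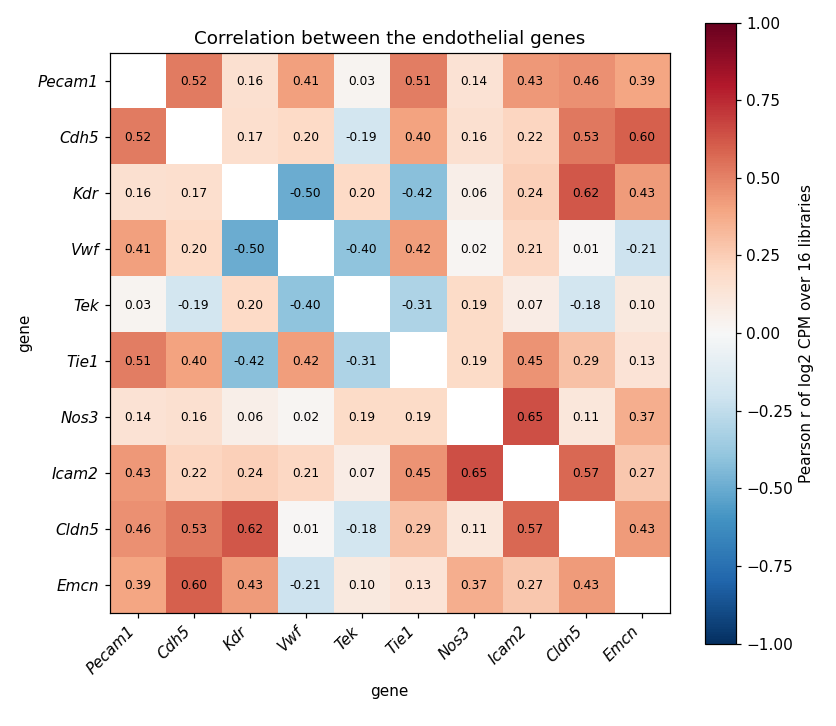
Pearson correlation of log2 CPM over 16 libraries between each pair of the 10 endothelial genes (both axes; colour from -1 to 1, the value printed in each cell). Values run from -0.50 for Kdr with Vwf to 0.65 for Nos3 with Icam2.

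The genes outside the list whose log2 CPM was most like the mean of the members over the 16 libraries were Scarf1, a scavenger receptor of endothelium, with a Pearson correlation of 0.85, Zfp326 at 0.82, Nampt at 0.81, Nudt18 at 0.81, Kctd1 at 0.78, Pparg at 0.77, Atp5pb at 0.76 and Rasip1, a regulator of endothelial junctions and tube formation, at 0.75. By Spearman's rank correlation 5 of these 8 were again among the 8 closest, while Rasip1 ranked 41. Pparg is also in the white adipocyte list. The 8 genes were picked as the highest of all tested genes and are a description.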

How the data were processed

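Per the submitters' processing notes, reads were handled with cutadapt 1.18, Trim Galore 0.6.4, FastQC 0.11.5 and STAR 2.5.2b on mouse build GRCm39; the counting program and gene annotation are not given in the sources used here. The deposited values were raw counts, 1 whole number per gene symbol and library. A second deposited table held the authors' variance-stabilised values on a log2 scale and served as an alternative input. 1 row without a name (at most 0.00257% of a library's counts) and 2 reporter rows were left out.

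Groups came from the genotype and diet labels. The test was edgeR 4.0.16 under R 4.3.3 (TMM, filterByExpr with a minimum count of 10 and total of 15, quasi-likelihood test, 1 fit over 16 libraries, 12 residual degrees of freedom) and tested on simulated data. Log2 CPM used a prior count of 2, and 3 counts were taken as the limit of a 0. Alternatives were DESeq2 1.42.0 and limma 3.58.1, other size factors, no filter, fits of single pairs of groups and leaving out each library. The limit given for a 0 covers counting error only, and reads without molecular identifiers are not independent molecules. The SD and SE values also carry the spread between mice. No 2 libraries held the same counts. Called genes of the other lists were named, and for an endothelial or pathway list without one the gene with the smallest p; Adipoq, Treml1, Pf4 and Fabp4 were chosen after their values were seen. The members, lists and tests were chosen with earlier results of these data known, and no list was tested as a set.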

Additional observations from a re-analysis of the deposited data

Results flagged for a closer look

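The difference between the Mif effect at 42 weeks and that at 24 weeks was past the threshold for Kdr (log2 9.64 ± 2.32 SE, edgeR adjusted p = 0.0432), with Kdr high in 2 of 4 Apoe-/-Mif-/- mice at 42 weeks and in 1 of 4 Apoe-/- mice at 24 weeks.

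In 3 of the 40 combinations of a member and a group, 1 library stood apart from the other 3 on the log2 CPM scale, with a gap to the nearest library above 0.829 of the group's range; chance gives about 1 in 20. Vwf was low in library 4 of Apoe-/- mice at 42 weeks, at 54.4 CPM with the nearest at 721 CPM (gap 0.877 of the range). Tie1 was high in library 3 of Apoe-/-Mif-/- mice at 42 weeks, at 96.7 CPM with the nearest at 8.73 CPM (gap 0.850). Nos3 was high in the same library, at 13.9 CPM with the nearest at 1.54 CPM (gap 0.834).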

How the results depend on the processing

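Limits first. Several members had under 10 counts in some libraries, and the groups of 4 varied widely, so differences of several-fold were not detectable for most members. No paired analysis was possible because the labels give no shared replicate numbers and each library came from another mouse. With DESeq2's size factors in place of TMM, the median over genes of the shift in log2 value was 0.07 for genotype at 24 weeks and 0.19 at 42 weeks. It was 0.41 for duration in Apoe-/-Mif-/- mice, 0.30 in Apoe-/- mice and 0.12 in the difference of Mif effects.

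Counts of called genes depended on the method, and the cause was not tested. For genotype at 24 weeks the 5 called genes became 0 with size factors, voom, voom with quality weights, the variance-stabilised values, only the 2 groups, and the white adipocyte covariate; they became 117 without the filter and 210 with DESeq2, and 0 to 21 leaving out a library. For genotype at 42 weeks the 0 became 150 without the filter, 902 with DESeq2, 25 with only the 2 groups, and 0 to 1 leaving out a library. For duration in Apoe-/- mice the 0 became 18 without the filter and 391 with DESeq2. In Apoe-/-Mif-/- mice the 13 became 22 with size factors, 419 without the filter, 562 with DESeq2, 5 with quality weights, 0 with voom, the variance-stabilised values and the covariate, and 0 to 36 leaving out a library. For the difference of Mif effects the 73 became 426 without the filter, 543 with DESeq2, 0 with voom, quality weights, the variance-stabilised values and the covariate, and 0 to 124 leaving out a library.

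Members called moved as follows. DESeq2 called 1 for genotype at 24 weeks (Kdr), 2 for genotype at 42 weeks (Kdr and Vwf) and 1 for duration in Apoe-/-Mif-/- mice (Kdr); without the filter 1 was called (Kdr) in each of the last 2. In the difference of Mif effects the 1 call became 0 with voom, quality weights, the variance-stabilised values and the covariate, and 0 to 1 leaving out a library; Kdr was 10.33 with size factors, 9.71 without the filter, 10.36 with DESeq2, 2.71 with quality weights and 4.78 on the variance-stabilised values.

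Of 1188 recomputed member values, 138 changed sign, 40 of them by more than their SE; 6 were newly called (Kdr in 5 and Vwf in 1) and 14, all of Kdr, lost their call. No reversed value was called. With quality weights they were Nos3 1.34 for genotype at 24 weeks, Kdr 0.33 and Tie1 -0.62 for duration in Apoe-/- mice, Cdh5 -1.43 and Tek 0.90 for duration in Apoe-/-Mif-/- mice and Nos3 -1.21 in the difference. With voom they were Cldn5 -0.21 for genotype at 42 weeks and Tek 0.43 for duration in Apoe-/-Mif-/- mice. With the covariate they were Kdr 2.71, Cldn5 1.38 and Emcn 3.07 for genotype at 24 weeks, Cdh5 -1.46 at 42 weeks, Cdh5 -1.95 for duration in Apoe-/-Mif-/- mice, and Cldn5 -0.44 and Emcn -2.71 in the difference. Leaving out 1 library gave, for genotype at 24 weeks, Emcn -2.42 to 1.91, Tek -3.04 to 1.28. For genotype at 42 weeks it gave Cldn5 -1.01 to 2.43, Cdh5 -1.64 to 1.65, Nos3 -1.05 to 1.46, Pecam1 -3.45 to 0.11, Tie1 -4.30 to 0.66, Icam2 -1.42 to 1.39, Emcn -3.41 to 3.35, Tek -3.02 to 1.09. For duration in Apoe-/- mice it gave Pecam1 -0.47 to 1.78, Cdh5 -1.26 to 1.87, Tie1 -1.24 to 3.20, Kdr -4.82 to 0.20, Emcn -3.93 to 1.90, Tek -4.42 to 2.12. In Apoe-/-Mif-/- mice it gave Cldn5 -0.54 to 3.30, Cdh5 -1.56 to 0.91, Pecam1 -1.28 to 1.69, Icam2 -2.34 to 0.64, Emcn -3.45 to 1.85. In the difference it gave Cldn5 -0.76 to 3.08, Emcn -2.91 to 3.80, Pecam1 -2.61 to 0.94, Tek -3.77 to 2.68.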
